A study of Mus musculus with 21 samples.

Results

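The subject is the set of 35 nuclear genes for subunits of respiratory complex I, measured by RNA sequencing in mouse leg muscle. The members were taken as the rows of the count table whose Ensembl mouse identifiers map to the 35 listed Nduf symbols. All 35 were found among the 46071 genes of the table, and all 35 were among the 12658 genes with enough counts to be tested.

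The 21 libraries form 4 groups by genotype and drug. Each RNA sample came from a powder that mixed quadriceps with gastrocnemius. All 4 groups carry floxed FoxO1, FoxO3 and FoxO4 alleles, the genes of 3 related transcription factors, on a mixed background of C57Blk6, C57Blk6J and 129 strains. The floxed controls (label FoxOTlox, n = 4) carry these alleles without deletion. The knockouts (FoxOTKO, called TKO, n = 6) also carry ACTA1-Cre, which is driven by a skeletal actin promoter and acts in muscle fibres, so other cells of the muscle keep the genes. The STZ floxed group (STZFoxOTlox, n = 5) and the STZ TKO group (STZFoxOTKO, n = 6) received streptozotocin (STZ), a toxin of insulin-producing beta cells, at 150 mg/kg, with a further 75 mg/kg on day 3 in females. Animals were kept in the study if random blood glucose stayed above 300 mg/dL. Animals without STZ received citrate buffer. The labels give neither age nor the sex of each animal, and do not say whether each library is a separate animal, so the tests measure the spread between libraries.

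Complex I takes electrons from NADH, passes them along a chain of iron-sulfur clusters to ubiquinone, and pumps protons across the inner mitochondrial membrane. Its matrix arm has an N module, which oxidises NADH, and a Q module, which reduces ubiquinone. Its membrane arm is assembled from the modules ND1, ND2, ND4 and ND5, each built around subunits encoded by mitochondrial DNA. Core subunits carry out catalysis and are conserved from bacteria, while accessory subunits surround them and are needed for assembly or stability. Of the 35 members, 10 were placed in the N module, 5 in the Q module, 3 in ND1, 6 in ND2, 5 in ND4 and 6 in ND5. The members include 6 core subunits, which are Ndufv1, Ndufv2 and Ndufs1 in the N module and Ndufs3, Ndufs7 and Ndufs8 in the Q module, and 29 accessory subunits. Muscle fibres that rely on oxidative metabolism hold much of this complex.

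Promoter sequences were available from RefSeq (GRCm38.p6) for 32 of the 35 members, covering 250 bases before to 50 bases after the start of transcription. Letters of 5 factor motifs were searched on both strands, among them NRF1, a known activator of respiratory chain genes, and FoxO, since the deleted factors bind that motif. The NRF1 letters GCGCNTGCG stood in 9 of 32 members (28.1%), against 7.12% of 27025 genes with a promoter entry. The YY1 letters AAGATGGCG stood in 5 of 32 members (15.6%), against 1.64% of genes. The ETS letters CCGGAAGT were found in 1 member, Ndufs3 (3.12% against 4.31%). The ERR letters TCAAGGTCA stood in 0 of 32 members and 0.466% of genes, and the FoxO letters GTAAACA in 0 of 32 members and 4.05% of genes. A match describes the letters and shows no binding, and a missing match says only that these letters were not in the window. The letters were shortened once after a first search, so the shares are descriptive and no enrichment was tested.

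The windows of 150 bases before the start are shown for Ndufs8 and Ndufa11, the subunits with the lowest adjusted p and with the most negative log2 change under STZ in floxed controls. They lie at chr19:3912775-3912924 (Ndufs8, minus strand) and chr17:56717612-56717761 (Ndufa11, plus strand) and are printed 5′ to 3′ along the gene, with motif letters in capitals. The Ndufs8 promoter held none of the 5 motifs. In Ndufa11 the capitals are NRF1 letters that match on both strands, the matches overlapping with a shift of 1 base.
Ndufs8: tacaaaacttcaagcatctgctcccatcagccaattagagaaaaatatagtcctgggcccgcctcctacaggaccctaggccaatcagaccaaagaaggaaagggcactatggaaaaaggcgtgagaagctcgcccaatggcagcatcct
Ndufa11: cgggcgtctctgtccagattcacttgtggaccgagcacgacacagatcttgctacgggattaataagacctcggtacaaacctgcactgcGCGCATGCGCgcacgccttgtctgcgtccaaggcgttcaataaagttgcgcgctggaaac

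For the other 8 members with NRF1 letters, the match nearest the start is shown within 30 bases, with the match in capitals, so that the flanks can be compared. The windows lie in Ndufa8 (chr2:36049328-36049357, minus strand), Ndufb10 (chr17:24724430-24724459, minus), Ndufs6 (chr13:73328479-73328508, minus), Ndufb4 (chr16:37654370-37654399, minus), Ndufa5 (chr6:24527696-24527725, minus), Ndufs5 (chr4:123718264-123718293, minus), Ndufa12 (chr10:94198905-94198934, plus) and Ndufa6 (chr15:82354249-82354278, minus). Ndufs6, Ndufa12 and Ndufa6 match along the gene, and the other 5 on the opposite strand, so that their capitals show the reverse complement.
Ndufa8: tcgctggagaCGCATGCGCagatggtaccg
Ndufb10: ctgcccactaCGCAGGCGCagctgtcacct
Ndufs6: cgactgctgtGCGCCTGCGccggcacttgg
Ndufb4: ctcatatccgCGCAGGCGCagatgtgcgcc
Ndufa5: gtgtgagctgCGCAGGCGCaaatctacctc
Ndufs5: ctgcttgctgCGCAGGCGCagacccgctgt
Ndufa12: ctccagctctGCGCCTGCGtagaacgacct
Ndufa6: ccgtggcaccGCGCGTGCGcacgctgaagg

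The 5 YY1 matches all lay after the start of transcription, and in 5 of 5 the ATG inside the match is the annotated start codon of the gene (GENCODE mouse release 21). They are shown because these subunits, 4 of the matrix arm and Ndufc1 of the membrane arm, share this stretch where translation begins. They lie in Ndufs4 (chr13:114388045-114388074, minus strand), Ndufs6 (chr13:73328433-73328462, minus), Ndufs7 (chr10:80249463-80249492, plus), Ndufa9 (chr6:126849096-126849125, minus) and Ndufc1 (chr3:51408914-51408943, minus).
Ndufs4: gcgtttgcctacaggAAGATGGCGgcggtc
Ndufs6: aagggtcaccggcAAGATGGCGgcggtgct
Ndufs7: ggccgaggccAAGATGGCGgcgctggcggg
Ndufa9: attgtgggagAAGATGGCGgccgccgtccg
Ndufc1: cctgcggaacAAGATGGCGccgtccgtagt

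Total counts ranged from 2951290 to 7687823 per library. Foxo4 was at 124 to 201 CPM (counts scaled to the library's TMM-adjusted size) in the 9 libraries with floxed genotype and at 3.87 to 12.7 CPM in the 12 TKO libraries, and Foxo1 at 36.4 to 113 against 7.00 to 26.7 CPM, so both followed the labels. Foxo3 did not, at 64.1 to 114 against 73.7 to 233 CPM, and which part of its transcript the deletion removes is not given in the sources used here. Defining muscle genes were high throughout, with Acta1 at 10986 to 41565 CPM. The library codes in the titles fall into 6 runs of consecutive codes, which the labels do not call batches. Runs 4 and 5 (libraries 13 to 18, by title number) have no floxed control, run 3 has no STZ floxed library and run 6 no STZ TKO library. No pair of libraries matched within counting noise: chi-square per degree of freedom was at least 8.61 over 210 pairs.

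The subunit genes moved together from library to library. The mean level of the 35 members (log2 CPM minus each gene's mean over the 21 libraries) was 0.14, 0.40, 0.57 and 0.61 in the floxed controls and 0.25, -0.03, -0.29, -0.93 and -1.41 in the STZ floxed group. In TKO it ran from -0.30 to 0.99 with a median of 0.15, and in STZ TKO from -0.87 to 1.22 with a median of -0.26. The floxed controls lay closest together, with an SD of 0.21, and STZ TKO farthest apart, with an SD of 0.79. Only library 3 of the STZ floxed group was above the lowest floxed control.

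**Figure D1:**
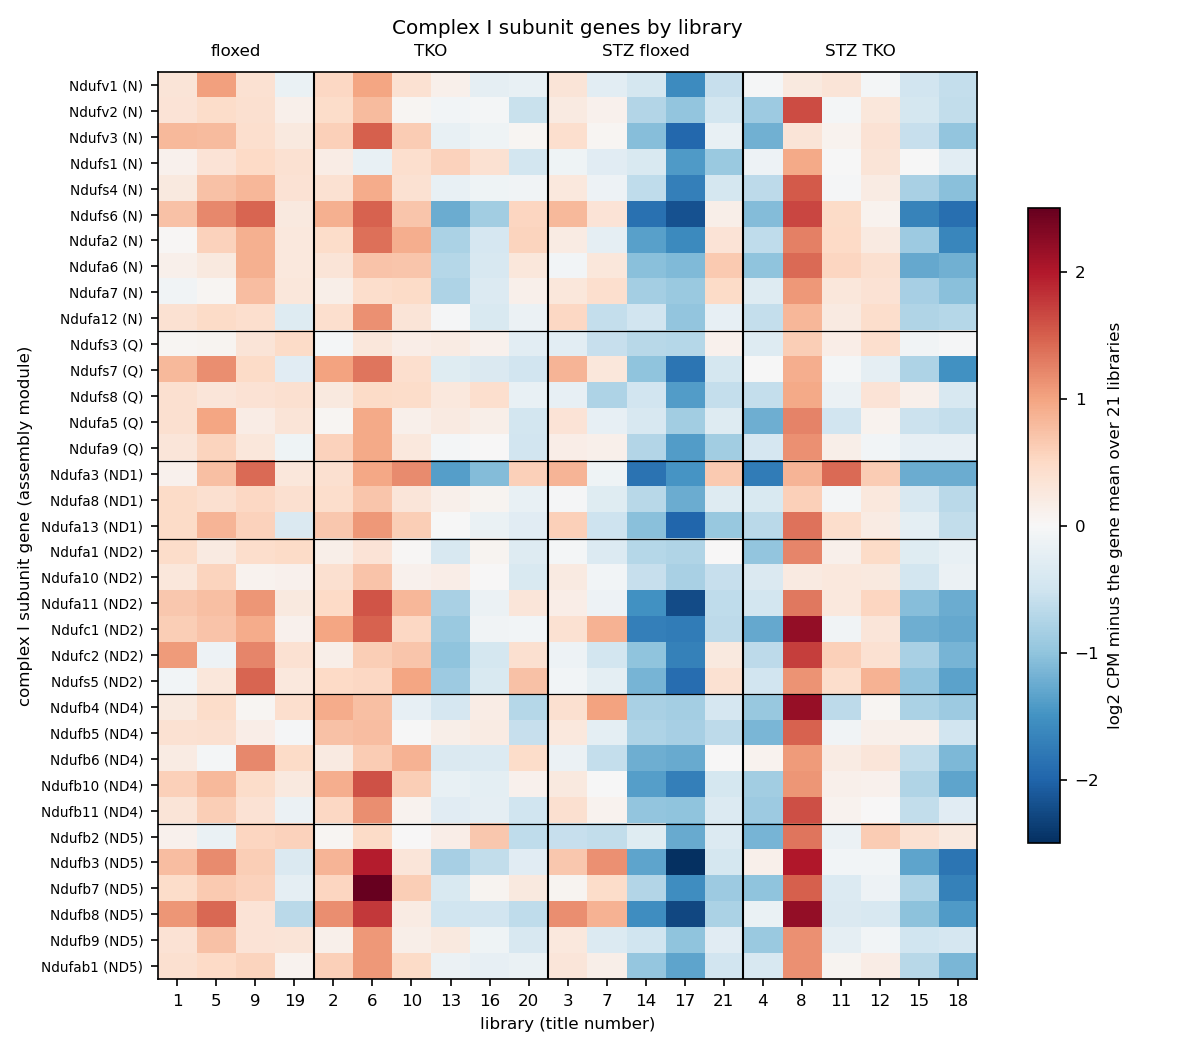
Each row is 1 of the 35 subunit genes, ordered by assembly module, and each column 1 of the 21 libraries, ordered by group. Color gives log2 CPM minus the gene's mean over the libraries, red above and blue below. Whole columns share a color: library 17 (STZ floxed) is blue and library 8 (STZ TKO) red in nearly every row.

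Library 17 (STZ floxed) and library 8 (STZ TKO) stood apart. Library 17 held the lowest CPM of all 21 libraries for 26 members and the lowest of its own group for 34. Library 8 held the highest CPM of all libraries for 22 members and the highest of its group for 31. This was not particular to complex I. Library 17 also had the lowest mean level for genes of complexes II to V (-1.44), skeletal muscle markers (-1.77) and fibroblast markers (-2.02). It was not the lowest for macrophage or endothelial markers. Library 8 had the highest level of complexes II to V (1.15). The members took 0.170% of all counts in library 17 and 0.854% in library 8, against 0.393 to 0.517% in the floxed controls. The main medians and counts of the members are also given without them.

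The level of the members also went with the run and with the level of other short transcripts. Mean levels per run were 0.12, 0.69, 0.34, -0.62, -0.81 and -0.09 for runs 1 to 6. Among 206 genes outside the set whose longest coding transcript is under 800 nt, the median centred level was lowest in library 17 (-0.83) and library 18 (-0.69) and highest in libraries 8 (1.17) and 6 (0.94). The members with such short transcripts (13) and the members with longer ones (22) had nearly the same median change under STZ in floxed controls, -0.77 and -0.76. Among the 206 other short genes, 147 had a negative change in that comparison, with a median of -0.28. Genes with a transcript of 4000 nt or more had a median of 0.09. The part of the run or of transcript length in the results below was not tested beyond the fits given with them.

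**Figure D2:**
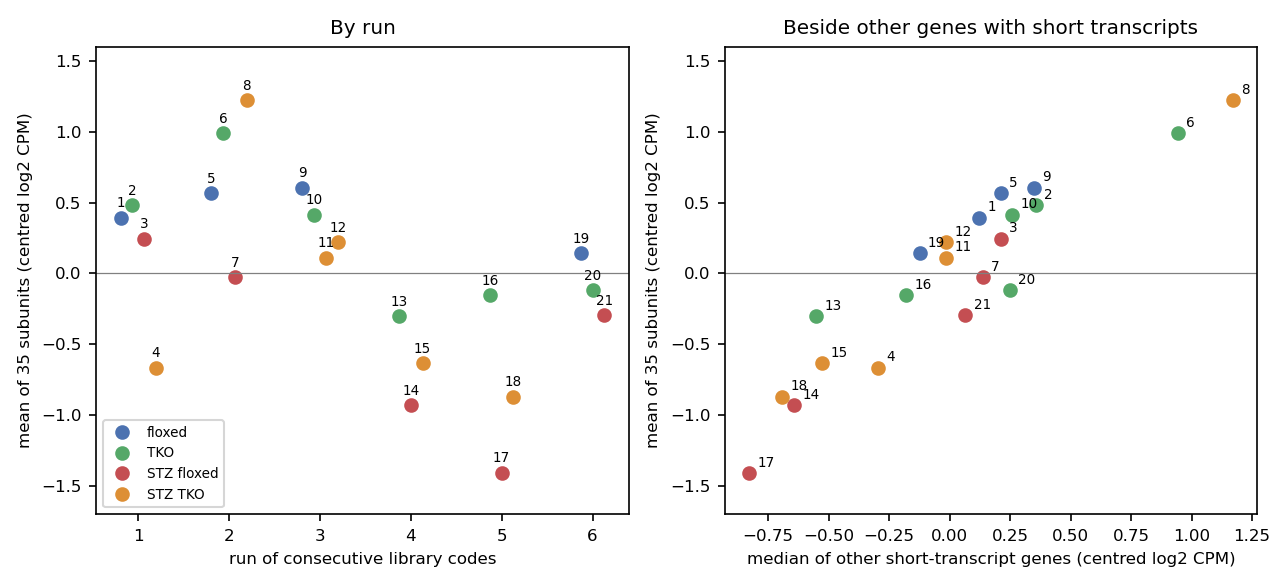
The y axis of both panels is the mean level of the 35 subunit genes in a library (centred log2 CPM), with libraries numbered and colored by group. The left panel sets it against the run of library codes, and the right panel against the median level of 206 other genes with short transcripts. Runs 4 and 5 lie below 0 in all 6 of their libraries, and libraries 8 and 17 stand at opposite corners of the right panel.

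Levels differed widely between subunits of what is 1 complex. Per kilobase of all exons, the mean level over the 21 libraries ran from 8.40 CPM for Ndufs5, a small accessory subunit of ND2, to 363 CPM for Ndufa2, an accessory subunit of the N module, a 43.3-fold range with a median of 56.3. Per kilobase of the longest coding transcript the range was 34.2-fold, with the same genes at its ends. Within the ND5 module, Ndufab1, the mitochondrial acyl carrier protein and a subunit that occurs more than once per complex, stood at 9.92 CPM per kilobase of all exons. Ndufb9 stood at 146. Per kilobase of the longest coding transcript they were at 19.6 and 214. Annotated length enters this gap, since their mean levels were 68.3 and 151 CPM over 6883 and 1031 bases of exons.

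Subunits also differed in how steady they were. The within-group SD of log2 CPM had a median of 0.67 over the members, against 0.38 over 8600 genes in the same range of mean level. It was smallest for Ndufs3, a core subunit of the Q module (0.29), Ndufa10 (0.35), Ndufa8 (0.38) and Ndufs8 (0.39), and largest for Ndufb8 (1.20), Ndufb3 (1.18), Ndufs6 (1.16) and Ndufa3 (1.11). Ndufb8, an accessory subunit of ND5 whose protein is often used as a marker of assembled complex I, varied with the run. It stood at 262 to 1348 CPM in the 8 libraries of runs 1 and 2, and at 60.7 to 372 CPM in the other runs, with all 4 groups in both ranges.

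STZ in floxed controls went with lower levels of the subunit genes. All 35 members had a negative log2 change, as did 48.4% of the genes tested, and the median was -0.77, against 0.02 over all genes. The call rests on edgeR's quasi-likelihood test with Benjamini-Hochberg adjustment over all genes tested, at 0.05. Only Ndufs8 passed, so 1 of 35 members was lower, against 0.853% of genes called lower and 1.35% called in either direction. At an unadjusted p under 0.05, 17 members were lower, against 7.67% of the genes. The groups did not overlap for 8 members, all lower (5.17% of genes): Ndufs1, Ndufs8, Ndufa8, Ndufa1, Ndufa11, Ndufb10, Ndufb2 and Ndufb9. Library 17 was the highest STZ floxed library for none of the members, so none of these 8 separations rests on it. DESeq2 called 3 members lower, Ndufs1, Ndufs8 and Ndufa8, against 3.36% of genes called in either direction. In bulk muscle, fewer fibres and less RNA per fibre cannot be told apart.

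In the Q module, Ndufs8, a core subunit that holds iron-sulfur clusters on the path to ubiquinone, was at 104, 108, 110.4 and 111 CPM in the floxed controls and at 31.8, 49.2, 55.2, 60.2 and 72.4 CPM in the STZ floxed group. All 5 STZ floxed libraries lay below all 4 controls. The log2 change was -1.01 ± 0.26 (SE), with an adjusted p of 0.0492 from edgeR. The call was borderline: the adjusted p ran from 0.0142 to 0.322 over 33 other settings and missed 0.05 in 23 of them. Among these were the fit with the run as a block (0.0694) and the fit without library 17 (0.147). Ndufs8 was also not called in the fit with an offset for transcript length and GC content. Ndufs3 was at 101 to 135 CPM in floxed controls and 59.1 to 104 CPM under STZ, a log2 change of -0.63 ± 0.20 (0.123), with library 21 alone inside the control range. Ndufs7, Ndufa5 and Ndufa9 had log2 changes of -0.77, -0.75 and -0.70, none past the threshold.

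In the ND1 module, Ndufa8, an accessory subunit on the intermembrane face, came next. It was at 75.9, 76.0, 79.9 and 82.0 CPM in floxed controls and at 24.2, 35.4, 46.1, 46.3 and 56.6 CPM in the STZ floxed group. The groups did not overlap, and the log2 change was -0.91 ± 0.25, with an adjusted p of 0.0673 from edgeR. With an offset for transcript length and GC content the log2 change of Ndufa8 was smaller, at -0.65, with an adjusted p of 0.0446 from edgeR. Ndufa13, also known as GRIM-19, had -0.98 and Ndufa3 -0.74, and the spread of Ndufa3 was wide (SE 0.64).

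In the N module, the 10 log2 changes ran from -1.10 (Ndufs6) to -0.29 (Ndufa7), with a median of -0.82. Ndufs1, the largest core subunit and a carrier of iron-sulfur clusters, was at 394, 463, 475 and 512 CPM in floxed controls. In the STZ floxed group it was at 137, 192, 279, 298 and 337 CPM, below every control, with a log2 change of -0.89 ± 0.27 and an adjusted p of 0.102. Ndufv1 and Ndufv2, which hold the site of NADH oxidation and a nearby cluster, had -0.83 and -0.63. Ndufs4, an accessory subunit whose loss causes a Leigh-like disease in mice, had -0.95 (0.302).

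In the membrane arm outside ND1, the median log2 changes were -0.91 in ND2, -0.62 in ND4 and -0.75 in ND5. Ndufa11, an accessory membrane subunit of ND2, had the most negative value of all members. It was at 17.4, 23.3, 24.5 and 31.4 CPM in floxed controls and at 3.09, 5.07, 9.41, 13.3 and 16.4 CPM under STZ. The groups did not overlap, but the log2 change of -1.36 ± 0.51 did not pass (0.204). Ndufb4 in ND4 was the member closest to 0, at -0.26 ± 0.56. Core and accessory subunits had medians of -0.80 and -0.77, and no difference between modules or kinds of subunit was tested.

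**Figure D3:**
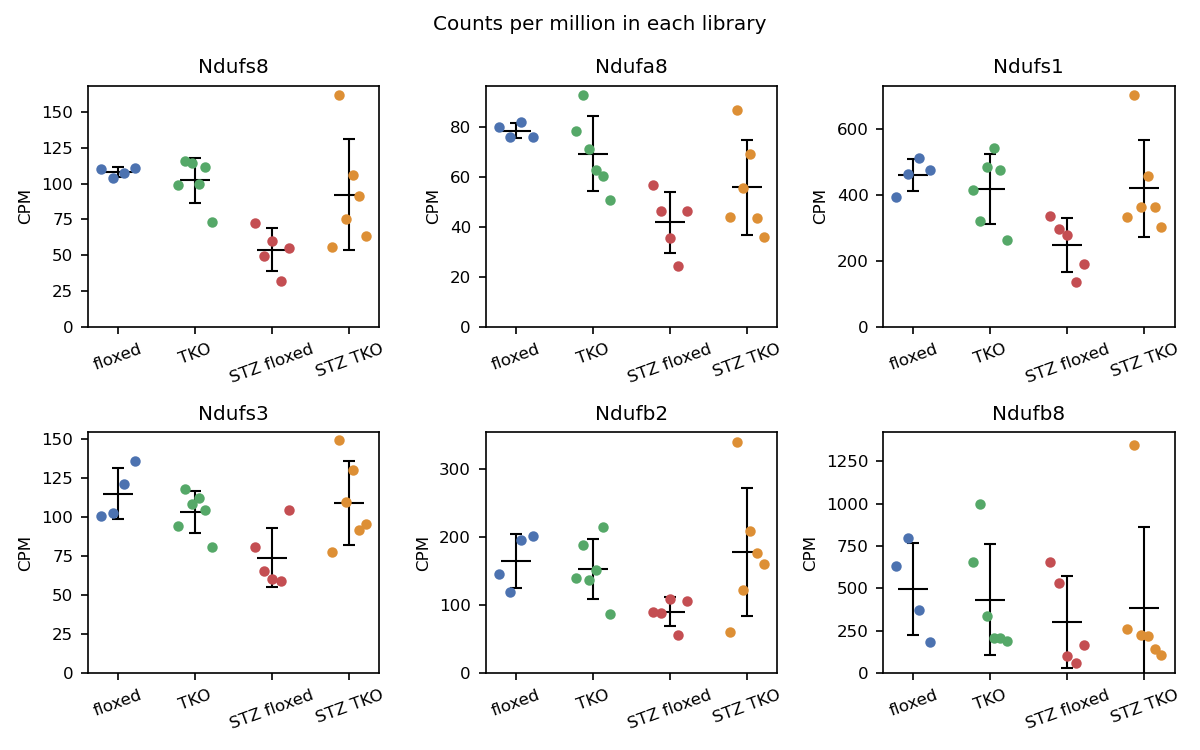
CPM of 6 subunit genes in each of the 21 libraries, by group, on linear axes from 0. Bars give the mean and SD over libraries. The 5 STZ floxed libraries of Ndufs8, Ndufa8, Ndufs1 and Ndufb2 lie below all floxed controls, those of Ndufs3 and Ndufb8 do not, and library 8 is the highest STZ TKO point in each panel.

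Libraries 14 and 17, the lowest of the STZ floxed group, come from runs without a floxed control. With the run as a block, 33 of 35 members stayed negative with a median of -0.56 and 16 were lower at an unadjusted p under 0.05 (8.29% of genes), but none passed the threshold, against 1.94% of genes called. The median was -0.59 without library 17, -0.60 without libraries 17 and 18, and -0.45 without libraries 13 to 18, a setting chosen after seeing the data, with 0 members called in each. Within runs, the median difference between the STZ and the control library was -0.10 in run 1 (library 3 against 1, 23 of 35 members lower), -0.63 in run 2 (7 against 5, 31 lower) and -0.56 in run 6 (21 against 19, 29 lower). Ndufs8 was lower in all 3 of these pairs, by -0.61 in run 1, -1.07 in run 2 and -0.999 in run 6 on the log2 scale. Across the same 3 pairs 20 members were lower in each, against 21.5% of genes tested.

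For STZ in TKO the log2 changes lay nearer to 0. None of the 35 members passed in edgeR, against 0.142% of genes called, and DESeq2 also called 0. In edgeR 0 members had an unadjusted p under 0.05, against 11.3% of genes. The log2 changes were negative for 26 and positive for 9 members (48.8% of genes negative), with a median of -0.17. Ndufs8 was at 73.4 to 116 CPM (median 106) in TKO and at 55.4 to 162 CPM (median 83.6) in STZ TKO, where the groups overlapped and the log2 change was -0.15 ± 0.22. Ndufa8 was at 50.6 to 92.9 CPM (median 66.9) and at 36.1 to 86.7 CPM (median 49.7), a change of -0.31 ± 0.21. Ndufb7, an accessory subunit of ND5, had the most negative value, -1.01 ± 0.51 (0.458), with library 6 alone at 352 CPM in TKO.

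The STZ TKO values depended on library 8. Without it the median log2 change was -0.51, all 35 members were negative, and still no member passed. With the run as a block the median was -0.34, 31 of 35 members were negative, and 11 were lower at an unadjusted p under 0.05 (8.02% of genes), with 0 members and 0.774% of genes called. With the block, Ndufb7 was called lower by edgeR when library 8 was also left out (-1.33, adjusted p = 0.0331). It was also called when library 17 was left out instead (-1.11), but at a borderline adjusted p of 0.0499 in edgeR. Those fits were added after seeing the data, and their share of all genes called is not given here. Over the other settings 2 to 165 of all genes were called for STZ in TKO. Within runs the STZ TKO library was lower than the TKO library in 5 of 6 pairs by the median member, from -1.04 (4 against 2, 35 of 35 lower) to -0.21 (12 against 10, 27 lower). The exception was library 8 against library 6 in run 2, at 0.30 with 11 members lower. The pairs of run 3 share library 10. In all 6 pairs 8 members were lower, against 6.14% of genes.

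Averaged over both genotypes, 1 of 35 members, Ndufa8, was called lower with STZ, which is near the share over all genes. All 35 members had a negative log2 change (47.9% of genes), with a median of -0.50, and 1 passed, against 2.38% of genes called lower and 4.54% in either direction. Ndufa8 had a log2 change of -0.61 ± 0.16 and an adjusted p of 0.0328 in edgeR, and Ndufs8 was next at -0.58 ± 0.17 (0.0502). At an unadjusted p under 0.05, 11 members were lower, against 10.9% of genes. With the run as a block 9 of 35 members were lower, against 4.92% of genes called lower and 7.95% in either direction. These were Ndufv1 and Ndufv3 of the N module, Ndufs7 and Ndufs8 of Q, Ndufa8 of ND1, Ndufa11 of ND2, Ndufb10 of ND4, and Ndufb7 and Ndufab1 of ND5, so each module held at least 1. In that edgeR fit the log2 changes ran from -0.46 ± 0.14 (Ndufab1, adjusted p = 0.0475) to -0.81 ± 0.20 (Ndufb7, 0.0199), with the lowest adjusted p for Ndufb10 (-0.72 ± 0.16, 0.0115). With the block, 7 members were called without library 17 (6.26% of genes), which lost Ndufs8 and Ndufab1, and 21 without library 8 (9.49% of genes), fits added after seeing the data.

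The call on Ndufa8 was lost without libraries 17 and 18, and without each of libraries 1, 2, 5, 6, 9, 11, 14, 15, 17, 18 and 19 in turn. Over 32 other settings its adjusted p in edgeR or DESeq2 ran from 0.00536 to 0.253, and 13 of them missed 0.05. With the offset for transcript length and GC content its log2 change was smaller, at -0.39, with an adjusted p of 0.0415 in edgeR. Without library 8 and with no block the fit called 10 members, against 8.11% of genes, with a median of -0.70. Without library 17 it called 0, against 2.92% of genes, with a median of -0.40. DESeq2 called 3, against 8.7% of genes. Without libraries 13 to 18 the median was -0.28 and none was called. The count of members that pass thus moved between 0 and 10 with single libraries, and the share of genes called moved with it, while the median stayed negative in all 32 other settings, from -0.70 to -0.28.

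Across all 9 pairs of STZ and control libraries that share a run and a genotype, 5 members were lower every time: Ndufv3, Ndufa8, Ndufa11, Ndufb10 and Ndufb7. Of all genes tested, 2.88% were lower in all 9. Ndufb10, an accessory subunit of ND4, differed by -0.35 to -1.77 in the 9 pairs, with a median of -0.56. Ndufa8 differed by -0.04 to -0.83, with a median of -0.53. A further 10 members were lower in all but a single pair, among them Ndufv1, Ndufs1, Ndufs7, Ndufs8 and Ndufab1. The share of all genes lower in all but a single pair was not computed, so this count has nothing to be read against.

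**Figure D4:**
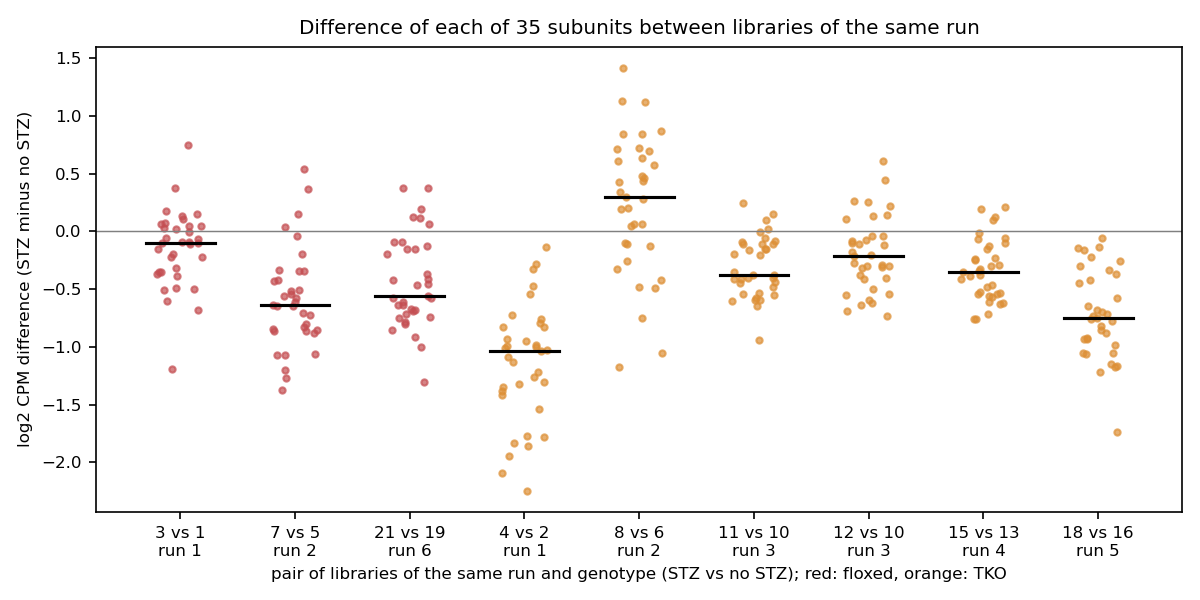
Each point is 1 of 35 subunit genes, and the y axis is its log2 CPM difference between an STZ library and a library without STZ of the same run and genotype (red for floxed, orange for TKO). Black bars mark the medians, which lie below 0 in 8 of the 9 pairs, the exception being library 8 against library 6.

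Deletion of the FoxO genes without STZ showed no member past the threshold, by edgeR or DESeq2. Of all genes tested, 0.514% were called in edgeR, and 0 members had an unadjusted p under 0.05, against 11.5% of genes. The log2 changes were negative for 29 and positive for 6 members, with a median of -0.14, but the median was positive in the fit with run as a block (0.10), when libraries 13 to 18 were left out (0.12) and when libraries 4, 15, 16 and 20 were (0.05). The individual values ran from -0.56 ± 0.47 (Ndufc2) to 0.57 ± 0.57 (Ndufb7). Within runs the median member was higher in TKO in runs 1 and 2 (0.13 and 0.36) and lower in runs 3 and 6 (-0.19 in both).

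Between TKO and floxed muscle under STZ no member passed the threshold, against 4.89% of genes called and 2.47% called higher. All 35 log2 changes were positive (46.4% of genes were negative), with a median of 0.44, and 4 members were higher at an unadjusted p under 0.05, against 10.7% of genes. With the offset for transcript length and GC content the median was 0.21 and 8 members were negative. This comparison shares the STZ floxed libraries with the STZ effect in floxed controls, so both carry library 17. The values nearest the threshold were those of Ndufs8 (0.77 ± 0.23, adjusted p = 0.0583), Ndufb2 (0.98 ± 0.31, 0.0726), Ndufs1 (0.76 ± 0.25, 0.0802) and Ndufs3 (0.55 ± 0.19, 0.0883) in edgeR, and DESeq2 called these 4, against 7.99% of genes.

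Ndufb2, an accessory subunit of ND5, was at 56.2, 88.4, 90.1, 106 and 109 CPM in the STZ floxed group and at 60.1 to 339 CPM (median 168) in STZ TKO. Ndufs1 was at 304 to 703 CPM (median 364) and Ndufs3 at 77.3 to 149 CPM (median 102) in STZ TKO. In each of these genes the groups overlapped, and library 8 was the highest STZ TKO library. Without library 8 the median over the members was 0.05, without library 17 it was 0.25, and with the run as a block it was 0.23, with 0 members called in each, against 8.44% of genes called with the block. With the block and without library 8 the median was -0.03. Within runs the median member was higher in STZ TKO in runs 2, 4 and 5 (1.32, 0.31 and 0.51), and lower in run 1 (-0.90, with 34 of 35 members lower).

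**Figure D5:**
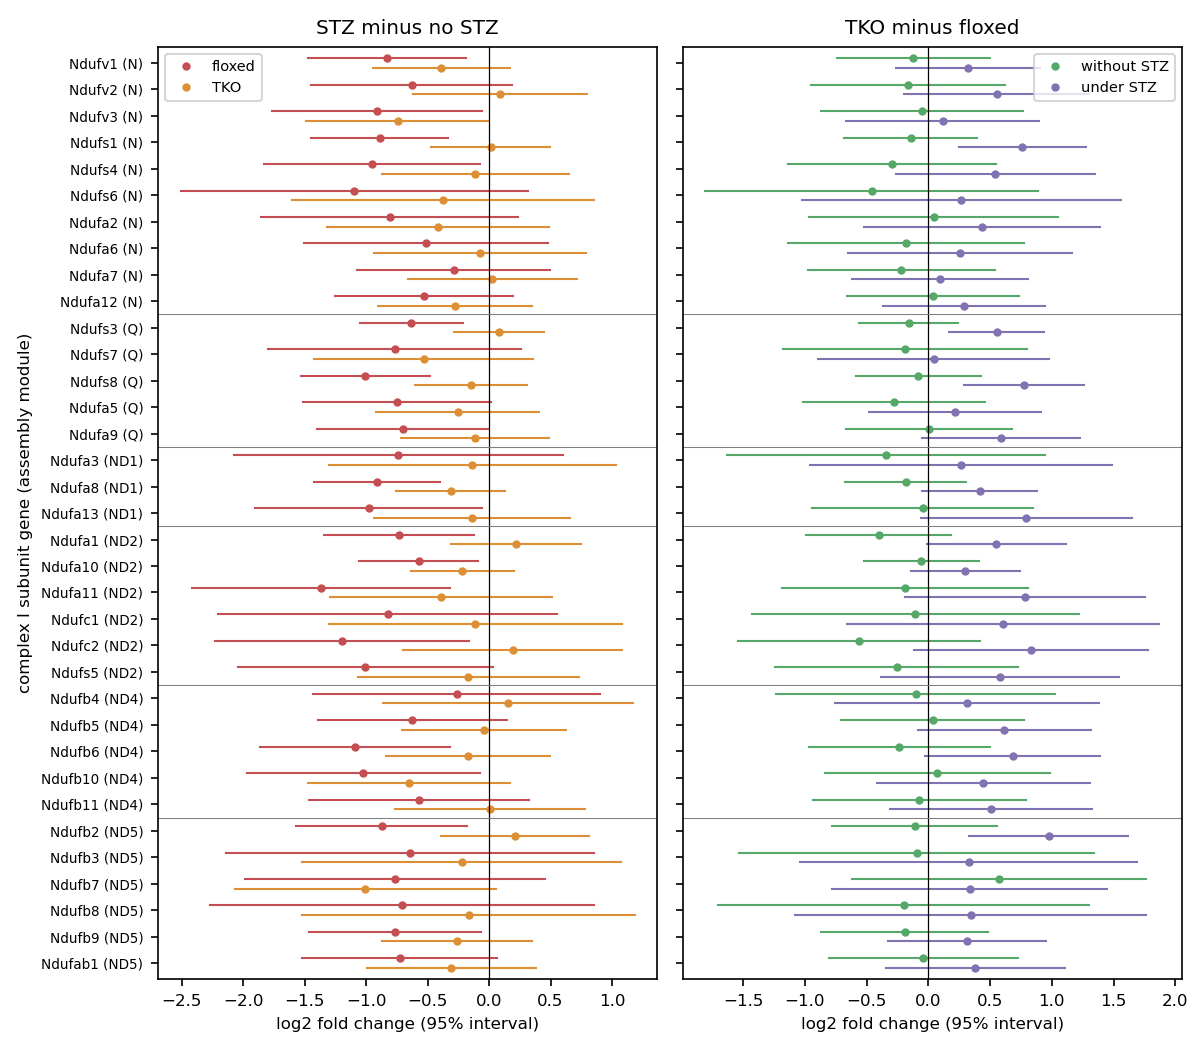
Log2 fold changes of the 35 subunit genes with 95% intervals from edgeR, ordered by assembly module. The left panel gives the STZ effect in floxed controls (red) and in TKO (orange), and the right panel the TKO effect without STZ (green) and under STZ (purple). Red points lie left of 0 and purple points right of 0 for all 35 genes. The interval leaves out 0 for 17 red and 4 purple points, and for 0 orange and 0 green points.

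The difference between both STZ effects was itself tested as an interaction. No member passed by edgeR or DESeq2, and of all genes 1 did in edgeR (0.0079%). The estimate was positive for 34 of 35 members, meaning a less negative STZ effect in TKO, with a median of 0.58 and 6 members at an unadjusted p under 0.05, against 2.35% of genes in that direction. Without library 8 the median was 0.13, without library 17 it was 0.39, with the run as a block it was 0.19, and with the block and without library 8 it was -0.04. No gene of any kind was called under the block. Averaged over STZ, the TKO effect had a median of 0.16 with 0 members called by edgeR or DESeq2 and 0 at an unadjusted p under 0.05 in edgeR, against 9.8% of genes called and 22.7% at the unadjusted p. Without library 8 that median was -0.01.

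Of 39 genes for complexes II to V, all 39 had negative log2 changes under STZ in floxed controls (median -0.84). The 3 that fell were Cox5b of complex IV (-1.18 ± 0.26), Atp5g3 of ATP synthase (-1.04 ± 0.23) and Cyc1 of complex III (-0.85 ± 0.22). Over all genes tested, 0.853% were called lower in that comparison. Without library 17 none of the 39 was called and the median was -0.61, and without libraries 13 to 18 none was called and it was -0.53. Without libraries 17 and 18, 1 was called, and DESeq2 called 6. The 19 measured assembly factors of complex I had a median of -0.49, with 18 negative and none called. The 7 complex I subunits of mitochondrial DNA had a median of -0.48, with all 7 negative and none called, and mitochondrial genes took 3.62% ± 0.63 (SD, n = 5) of counts in STZ floxed against 4.85% ± 1.06 (n = 4) in floxed controls. For STZ in TKO these 7 had a median of 0.22, with 5 positive, and complexes II to V had a median of -0.19, with 28 of 39 negative and none called in either list. For TKO under STZ the medians were 0.59 for these 7, with none called, and 0.56 for complexes II to V, where Atp5l of ATP synthase passed at 0.78 ± 0.22. No gene of complexes II to V was called with the run as a block, with no filter on low counts, with only the groups compared in the fit, without libraries 17 and 18, without library 8 (median 0.19) or without library 17 (0.40), while DESeq2 called 4. For STZ averaged over genotype 4 of the 39 genes of complexes II to V were called lower, against 2.38% of all genes. In the other fits the share of all genes called in either direction, given in brackets, also moved. The count was 14 with the run as a block (7.95%), 26 with the block when library 8 was left out (9.49%) and 9 when library 17 was (6.26%). With no block it was 16 without library 8 (8.11%) and 2 without library 17 (2.92%). It was 1 without libraries 17 and 18, and 0 without libraries 13 to 18.

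Of 15 regulators of oxidative metabolism, 2 were called lower under STZ in floxed controls by edgeR, against 0.853% of all genes. Ppara, a receptor that activates fatty acid oxidation genes, had -1.40 ± 0.31 (adjusted p = 0.0269). Perm1, a muscle regulator of oxidative genes, had -1.07 ± 0.27 and was borderline (0.0488). For STZ averaged over genotype, Ppara and Perm1 were called lower and Yy1 was called higher (0.55 ± 0.15, adjusted p = 0.0400 in edgeR). Ppard fell in TKO against floxed under STZ (-0.62 ± 0.18). None of the 15 passed for STZ in TKO or for TKO without STZ.

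Markers of other cells moved in the same comparisons, and their part in the subunit results was not tested. Under STZ in floxed controls all 8 fibroblast and all 7 tendon markers had negative changes, with Col1a1, Col1a2, Cilp2 and Tnmd called lower. The summed fibroblast markers were at 2454 to 7767 CPM in floxed controls and 597 to 1355 CPM in STZ floxed. In TKO all 14 macrophage markers had positive changes both without STZ (2 called) and under STZ (8 called), with summed levels of 154 to 198 CPM in floxed and 276 to 1960 CPM in TKO, and of 168 to 267 and 275 to 2502 CPM under STZ. Of 14 skeletal muscle markers, 12 had negative changes under STZ in floxed controls, and Mb, the oxygen-binding myoglobin of oxidative fibres, fell by 2.65 ± 0.47. For TKO under STZ the 14 muscle markers went both ways, with 8 positive, 6 negative and a median of 0.09, and Mb was the 1 called (2.92 ± 0.45). All 9 slow fibre markers were positive in that comparison (median 0.37, none called). There, 7 of 8 fibroblast markers were positive (median 0.96, Col3a1 called higher), as were all 7 tendon markers (0.72, none called). Of 11 denervation markers, 10 were positive in TKO without STZ (median 1.93, none called) and 8 under STZ (0.83, none called), and 5 were called higher in TKO averaged over STZ, led by Chrng, Chrna1, Ncam1 and Chrnd. The 14 muscle markers summed to 71864 to 234176 CPM in STZ floxed, against 174388 to 256629 CPM in floxed controls. No marker of the fibroblast, tendon, macrophage and muscle lists was without a count in any library. Of the 9 slow fibre, 10 endothelial, 6 adipocyte, 5 nerve, 5 blood and 11 denervation markers, none passed for STZ in floxed controls. The slow fibre markers had 6 negative and 3 positive changes there (median -0.25). For the interaction all 9 were positive (median 0.47, none called).

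Pseudogene copies of the members held few counts, such as 25 for Ndufab1-ps beside 7143 for Ndufab1 and 24 for Ndufs6b beside 5166 for Ndufs6. Another gene overlaps 13 members on the opposite strand, and since the strand setting of the counting is not given in the sources used here, their reads may be mixed. The largest partner was Eef1b2, with 12787 counts, beside 42558 for Ndufs1. Ndufs8, on chromosome 19 from 3908863 to 3912774, and Ndufa8, on chromosome 2 from 36036326 to 36049406 (GRCm38, both on the minus strand), overlap no other annotated gene.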

How the data were processed

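RNA sequencing libraries were made with a stranded kit from Trizol RNA and sequenced in a pool of 48 libraries, per the labels. The 21 libraries described were analysed. Reads were aligned with STAR to GRCm38.p4 and the deposited values are whole-number counts per gene from featureCounts, per the submitters' processing notes. The sources used here do not give tool versions, the annotation, the strand setting or the rule for multi-mapping reads.

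Counts of 46071 Ensembl genes were analysed in R 4.3.3. Symbols came from GENCODE mouse release 21, on the same GRCm38 coordinates, for 45143 genes. Genes without a symbol there held 0.0533% of counts. Low genes were removed with filterByExpr, libraries scaled by TMM, and a model with 1 mean per group fitted over all 21 libraries with edgeR 4.0.16 (robust quasi-likelihood). P-values were adjusted by Benjamini-Hochberg over the 12658 genes tested, within each comparison, at 0.05. CPM values are TMM-scaled, and log2 CPM used a prior count of 2. Alternatives were DESeq2 1.42.0, other scaling, no filter, the run of library codes as a block (also without library 8 or 17), an offset for transcript length and GC content, and libraries left out. limma 3.58.1 was loaded as a dependency.

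The 35 members and all gene lists were chosen with earlier results of these data known, as were the motif letters, which were shortened once after a first search. Named genes are all members, Foxo1, Foxo3 and Foxo4 as a check of the labels, and from each other list at most 4 called genes of lowest p per comparison.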

Additional observations from a re-analysis of the deposited data

Results flagged for a closer look

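In groups of 4 to 6 libraries, 144 sets of CPM values were examined for a highest or lowest library that stands off from the rest. By Dixon's criterion 20 sets met it, and for a single set chance gives about 1 in 20. The sets share libraries and hold genes that moved together, so they are not independent. The count of 20 therefore cannot be read against that rate. Library 8 gave 13 of the 20, as the highest of the 6 STZ TKO libraries. Its values were 643.6 CPM for Ndufv2, 142.6 for Ndufs4, 203.5 for Ndufa5, 362.4 for Ndufa9, 232.6 for Ndufc1, 152 for Ndufc2, 67.33 for Ndufb4, 779.5 for Ndufb5, 674.5 for Ndufb11, 115 for Ndufb3, 168.9 for Ndufb7, 1348 for Ndufb8 and 308.5 for Ndufb9. Library 8 also had the largest share of mitochondrial counts (8.46%) and the highest level of other genes with short transcripts (1.17). The part of either in these values was not tested.

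Library 6 was the highest TKO library for Ndufv3 (106.5 CPM), Ndufb7 (352 CPM) and Ndufb9 (295.6 CPM), and it held the lowest total count of the series (2951290). In the floxed controls, library 9 was high for Ndufa6 (44.96 CPM) and Ndufs5 (16.88 CPM), library 5 was high for Ndufb9 (230.8 CPM) and library 19 was low for Ndufa12 (53.31 CPM).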

How the results depend on the processing

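The median change of the 35 members under STZ in floxed controls was negative in all 33 other settings (-0.981 to -0.445), while the count called was not stable. It was 0 with RLE factors, with upper quartile factors, with the run as a block, without libraries 17 and 18 and without libraries 13 to 18, it was 3 with DESeq2, 2 with the block when library 8 was left out and 0 when library 17 was, and it ran from 0 to 2 with 1 library left out. For STZ averaged over genotype the count was 2 with upper quartile factors, 9 with the run as a block, 21 with that block and without library 8, 7 with it and without library 17, 2 with the offset for transcript length and GC content, 3 with DESeq2, 0 without libraries 17 and 18, 0 without libraries 13 to 18, and 0 to 10 with 1 library left out. For STZ in TKO the block called 1 member when either library 8 or library 17 was left out. For TKO under STZ it was 3 without libraries 4, 15, 16 and 20, 4 with DESeq2 (7.99% of genes), and 0 to 2 with 1 library left out. With 1 library left out, 380 to 780 of all genes were called in that comparison. Libraries 4, 15, 16 and 20 had the highest mean levels of macrophage markers, at 2.10, 2.02, 1.26 and 2.31. The share of all genes called without them is not given here. The median of TKO without STZ turned to 0.098 with the run as a block, 0.088 with the block and without library 8, 0.105 with the block and without library 17, 0.052 without libraries 4, 15, 16 and 20 and 0.117 without libraries 13 to 18. The median of TKO averaged over STZ was -0.002 with the length and GC offset, and ran from -0.011 (without library 8) to 0.262 with 1 library left out. When library 8 was left out of the fit with that block, the median was -0.031 for TKO under STZ and -0.036 for the interaction. The causes were not tested.

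Over all genes, the count called ran from 31 to 425 for STZ in floxed (171 as reported), 2 to 165 for STZ in TKO (18), 32 to 351 for TKO without STZ (65), 194 to 1111 for TKO under STZ (619), 0 to 4 for the interaction (1), 138 to 1202 for STZ averaged (575) and 529 to 1951 for TKO averaged (1240). No paired analysis was possible because each library number in the titles occurs once, so no replicate numbers are shared. The comparisons within runs and the fits with the run as a block rest on library codes.

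Depth limits the weakest members: Ndufs5 had 9 counts and Ndufa11 17 in their lowest STZ floxed library. Run, transcript length and group are partly tied together, since runs 4 and 5 hold no floxed control. Whether libraries are separate animals is not given in the sources used here.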
